A study of Mus musculus with 12 samples.

Results

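Lysosomal genes were followed as a set of 39, found by symbol in the deposited tables. They were chosen from knowledge of the organelle, with earlier results of these data known. All 39 were present among the 54146 genes of every library. They comprise 11 genes of the vacuolar proton pump (V-ATPase), 18 hydrolases, 8 membrane proteins and 2 soluble proteins that carry or present lipids. RNA-seq was performed on mouse embryonic stem cells (mESCs, the cultured counterpart of the inner cell mass of the blastocyst) of strain C57BL/6 and genotype Prdm10F/F; Rosa26-CreERT2, in which the 2 alleles of the transcription factor gene *Prdm10* are floxed. All 4 groups carry CreERT2 at the *Rosa26* locus, a Cre recombinase that acts only once 4-hydroxytamoxifen (OHT) has bound its receptor part. Cells were exposed for 24 h to 50 nM OHT, after which the labels give the genotype as Prdm10del/del; Rosa26-CreERT2, or to the same volume of ethanol (EtOH), and were harvested at Day 2 or Day 4. This gave the groups Day 2 EtOH, Day 2 OHT, Day 4 EtOH and Day 4 OHT, with 3 libraries each. No group was given OHT without a floxed allele, so that the effects of the drug, of active Cre and of the deletion cannot be told apart. The study's methods describe experiments in general as having independent biological repeats without saying how these libraries were cultured, and the p-values below measure the spread between these libraries.

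Libraries held 35017667 to 41409992 expected counts (estimated read pairs per gene, which need not be whole). The targeted gene was examined first. The normalised count of *Prdm10* at Day 2 was 767, 821 and 815 in the EtOH libraries and 2080, 2225 and 2213 in those labelled OHT, and at Day 4 it was 821, 875 and 911 against 1982, 2090 and 1965. The count over the whole gene was thus higher under the label of deletion, and a gene-level count does not show whether the floxed exon was removed. By other assays the study verified recombination after OHT in cells of this genotype, in DNA, the floxed exon's transcript and PRDM10 protein. Directions below therefore follow the labels, OHT relative to EtOH. All 8 mESC markers were above the minimum mean of 100 counts in every group. Their summed count was 130628 to 137244 in Day 4 EtOH and 148261 to 149796 in Day 4 OHT. At Day 4, 5 were called higher and 0 lower, against 23.5% and 21.7% of all genes tested. At Day 2 the sums were 145613 to 148896 in EtOH and 143386 to 144464 in OHT. There 2 were called higher and 3 lower, against 9.17% and 10.6%. Of 10 fibroblast markers, which would mark feeder cells, 1 was above a mean of 100 counts in Day 2 EtOH and 0 in each other group. At most 1 of the 10 was at 0 counts in all libraries of a group, so most were detected at a low level. *Lum* and *Dcn* had at most 2 counts in any library, and the summed count of the list was 154 to 258 per library. Summed counts of 6 trophoblast markers were 3248 to 3326 in Day 4 EtOH and 4035 to 4185 in Day 4 OHT, mostly from *Tfap2c*, while *Cdx2* had at most 10 counts. At Day 4, 2 of the 6 were above the minimum, and both were called higher, with log2 fold changes of 0.32 and 0.47. The Day 2 sums were 4164 to 4373 in EtOH and 4110 to 4252 in OHT. The 8 primitive endoderm markers summed to 3906 to 4243 in Day 4 EtOH and 4075 to 4495 in Day 4 OHT. The part of these shifts in the results below was not tested.

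Lysosomes are acidic compartments in which proteins, lipids, glycans and nucleic acids are broken down. The V-ATPase sets the acid pH. Its V1 sector, in the cytosol, hydrolyses ATP, and its V0 sector, in the membrane, passes protons into the lumen. Hydrolases are made at the endoplasmic reticulum and delivered through the Golgi, and the membrane proteins line the organelle and move ions, lipids and sterols across it. Many genes of all these kinds carry the E-box CACGTG near their start, which is the core of a longer element recognised by the transcription factors TFEB, TFE3 and MITF. The tumour suppressor folliculin (*Flcn*), with *Fnip1* or *Fnip2*, acts on Rag GTPases at the lysosome and takes part in keeping these factors in the cytosol.

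To show where this element lies in genes of each kind, promoters were read from RefSeq (GRCm38.p6) as windows of 250 bases before to 50 bases after a start site. Such windows were found for 33 of the 39 genes, and not for *Npc1*, *Asah1*, *Atp6v1b2*, *Atp6v1h*, *Atp6v1c1* and *Ctsb*. CACGTG, which reads the same on both strands, was in a window of 16 of the 33 (48.5%), compared with 8.09% of all 27025 genes with a window. It was found for 3 of 8 V-ATPase genes, 9 of 16 hydrolases, 4 of 7 membrane proteins and neither of the soluble proteins. The longer TCACGTGA, which contains CACGTG, was in 8 of the 33 (24.2%) and in 1.12% of all genes. These are matches of letters and not shown binding sites. The windows below, all 5′ to 3′ on the strand of the gene and with CACGTG in capitals, show the gene with the most copies (*Lamp1*, chr8:13158911-13159210, plus strand, first bases at -61, -45, -28 and -15), the lysosomal calcium channel gene *Mcoln1* (chr8:3500269-3500568, plus strand, -71 and -45), V-ATPase genes of the V0 sector with a copy at the start site (*Atp6v0d1*, chr8:105566015-105566314, minus strand, -3) and with a pair of copies (*Atp6v0b*, chr4:117887280-117887579, minus strand, -36 and -18), the protease gene *Ctsa* (chr2:164833523-164833822, plus strand, -12 and 6) and the gene with the largest rise, *Hexa* (chr9:59539290-59539589, plus strand), which has no copy in this window. Positions count from the start site, which is 1. *Ctsa* has another window, at a different start site (chr2:164832622-164832921, plus strand), which holds 0 copies and is not printed.
Lamp1: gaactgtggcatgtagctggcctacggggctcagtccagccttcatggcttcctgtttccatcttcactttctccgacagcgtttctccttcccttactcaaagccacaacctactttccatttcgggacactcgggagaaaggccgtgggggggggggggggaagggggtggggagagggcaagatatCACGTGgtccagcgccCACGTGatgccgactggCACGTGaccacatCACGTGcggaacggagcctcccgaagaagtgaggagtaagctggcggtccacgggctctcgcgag
Mcoln1: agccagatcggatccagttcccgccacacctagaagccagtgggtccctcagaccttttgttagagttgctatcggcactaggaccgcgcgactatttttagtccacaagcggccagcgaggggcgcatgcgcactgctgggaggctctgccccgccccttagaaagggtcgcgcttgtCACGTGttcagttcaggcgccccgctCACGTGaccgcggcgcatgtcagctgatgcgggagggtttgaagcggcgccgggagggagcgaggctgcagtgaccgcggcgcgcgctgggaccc
Atp6v0d1: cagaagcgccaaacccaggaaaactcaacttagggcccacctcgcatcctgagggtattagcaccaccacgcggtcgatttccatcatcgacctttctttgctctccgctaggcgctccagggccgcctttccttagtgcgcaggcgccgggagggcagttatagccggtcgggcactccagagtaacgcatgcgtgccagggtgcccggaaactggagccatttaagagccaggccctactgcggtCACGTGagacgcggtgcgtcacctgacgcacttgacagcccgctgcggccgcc
Atp6v0b: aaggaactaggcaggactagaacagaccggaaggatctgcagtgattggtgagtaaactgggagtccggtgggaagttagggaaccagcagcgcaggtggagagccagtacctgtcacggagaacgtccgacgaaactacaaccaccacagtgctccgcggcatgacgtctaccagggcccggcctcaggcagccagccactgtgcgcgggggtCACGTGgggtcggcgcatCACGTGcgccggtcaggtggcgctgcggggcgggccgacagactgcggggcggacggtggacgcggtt
Ctsa: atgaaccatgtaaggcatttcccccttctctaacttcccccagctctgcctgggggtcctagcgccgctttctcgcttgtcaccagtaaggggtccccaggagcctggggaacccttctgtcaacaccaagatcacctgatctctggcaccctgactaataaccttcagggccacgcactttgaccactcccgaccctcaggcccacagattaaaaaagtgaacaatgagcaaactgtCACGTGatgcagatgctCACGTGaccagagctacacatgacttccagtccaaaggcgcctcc
Hexa: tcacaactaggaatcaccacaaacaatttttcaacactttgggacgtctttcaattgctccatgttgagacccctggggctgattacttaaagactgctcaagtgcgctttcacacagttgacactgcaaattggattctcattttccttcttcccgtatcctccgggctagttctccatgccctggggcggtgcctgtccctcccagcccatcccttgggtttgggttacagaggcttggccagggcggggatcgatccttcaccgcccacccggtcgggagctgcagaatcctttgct

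Levels between genes were compared as TPM (the abundance of transcripts, corrected for length and scaled to a fixed total). In Day 2 EtOH the set spanned from 100.4 TPM for *Lamp1*, the main glycoprotein of the lysosomal membrane, to 0.417 TPM for the sulfatase gene *Sgsh*. Behind *Lamp1* came *Atp6v1e1* (76.6), a stalk subunit of V1, the protease genes *Ctsl* (72.0) and *Ctsd* (69.0), and *Atp6v1h* (59.4) and *Psap* (59.3), which did not differ beyond their spread. The lowest levels were those of *Gla* (3.38), *Lipa* (2.83) and *Naglu* (0.747), all hydrolases. *Naglu*, with *Sgsh* an enzyme of heparan sulfate breakdown, was the 1 gene at or under the minimum mean of 100 counts in both comparisons of labels, and *Sgsh* was under it at Day 2 alone. Its normalised count was 101, as the mean of all Day 4 libraries.

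Summed over the 11 V-ATPase genes, the level was 439 ± 2.91 TPM (SD, n = 3) in Day 2 EtOH and 488 ± 15.0 in Day 2 OHT, and 456 ± 23.4 and 546 ± 11.2 at Day 4. The 18 hydrolases summed to 335 ± 1.80 and 376 ± 10.4 TPM at Day 2 and to 313 ± 11.6 and 390 ± 5.92 at Day 4. For the 8 membrane proteins the sums were 175 ± 2.67 and 213 ± 5.71, then 189 ± 3.51 and 242 ± 4.12. *Npc2* and *Psap* together gave 79.1 ± 0.272 and 95.7 ± 0.963, then 78.9 ± 2.67 and 99.7 ± 2.59. In all 4 classes and on both days, the sums of the OHT libraries lay above those of all EtOH libraries of the same day. TPM and normalised counts are scaled differently, and at Day 2 TPM gave larger rises for some genes. *Lamp1* went from 100.4 to 118.9 TPM and from 9832 to 10969 normalised counts. *Atp6v1h* went from 59.4 to 61.1 TPM but from 5097 to 5001 normalised counts. The size of a change between labels is therefore read from the fits below. In bulk RNA, a change in the number of cells of a type and a change in RNA per cell cannot be told apart.

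**Figure D1:**
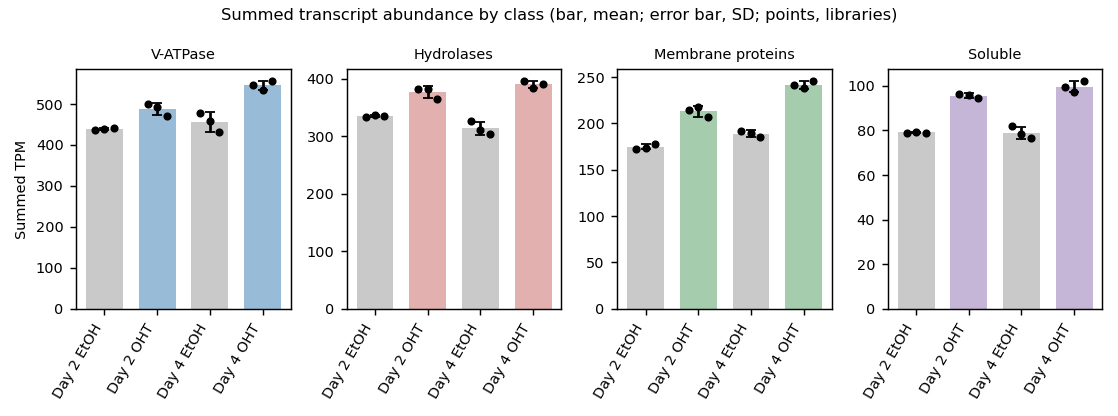
Summed transcript abundance (TPM, vertical axes starting at 0) of each class in the 4 groups. Bars are means, error bars are SD and points are the 3 libraries of a group. In every panel the 3 OHT libraries lie above the 3 EtOH libraries of the same day, for the V-ATPase at Day 4 with 534 to 557 against 432 to 479 TPM. The size of a rise in TPM need not match that in normalised counts.

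At Day 2 the rises were small, and the genes that rose encode proteases, glycosidases, membrane proteins and both soluble proteins, while the ceramidase gene *Asah1* fell by 47.6%. By the DESeq2 Wald test (adjusted p below 0.05 and mean count above 100), 14 of the 39 genes were higher in the OHT libraries, against 9.17% of the 11644 genes tested, and 1 (*Asah1*) was lower, against 10.6%. The 14 were the protease genes *Ctsa*, *Ctsb*, *Ctsd*, *Ctsl* and *Tpp1*, the glycosidase genes *Gaa* and *Hexa*, the membrane protein genes *Cd63*, *Clcn7*, *Lamp1*, *Lamp2* and *Mcoln1*, and *Npc2* and *Psap*. The rises ran from 8.50% for *Ctsd* to 34.8% for *Lamp2* (log2 fold change 0.43, SE 0.06). The call of *Ctsd* was lost when any 1 of the 6 libraries was left out (adjusted p = 0.0742 to 0.164 by DESeq2), with the replicate number as a block (0.143) and with effective lengths as offsets (0.0617). Of the 37 genes above the minimum, 30 had positive values, with a median log2 fold change of 0.12 compared with -0.028 over all genes tested. In 25 of the 39 genes, with *Sgsh* under the minimum among them, every OHT library lay above every EtOH library. This held for 18.7% of all genes tested, which were all above the minimum.

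None of the 11 V-ATPase genes was called at Day 2 with DESeq2, although 4 had an unadjusted p below 0.05 and 9 had positive values. The median over the 11 was 0.09, the lowest value was that of *Atp6v1a* (-0.05, SE 0.04) and the highest that of *Atp6ap1* (0.16, SE 0.07, adjusted p = 0.104 by DESeq2). This count depended on the processing. The edgeR test called 4 of the 11 higher, as did scaling by total counts, and removal of the trend on gene length called 5. Without Day 2 EtOH replicate 3, *Atp6v0c* was called (adjusted p = 0.00670 by DESeq2), and its adjusted p with all libraries was 0.0622.

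By Day 4 the rise had spread over nearly the whole set. The OHT libraries were higher for 32 of the 39 genes, against 23.5% of the 11555 genes tested, and lower for 2 (*Asah1* and *Gusb*), against 21.7%. The median log2 fold change of the 38 genes above the minimum was 0.33, a 25.9% rise, compared with 0.0063 over all genes tested. Libraries of the 2 labels did not overlap in 36 genes, with 34 of them higher in every OHT library, which held for 33.5% of all genes tested. All 14 genes that were higher at Day 2 were higher again, and no gene was called in opposite directions (of all genes tested on both days, 3.62% were called higher on both). *Cln3*, *Gla*, *Lipa* and *Npc1* were not called on either day, and *Naglu* did not reach the minimum mean.

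**Figure D2:**
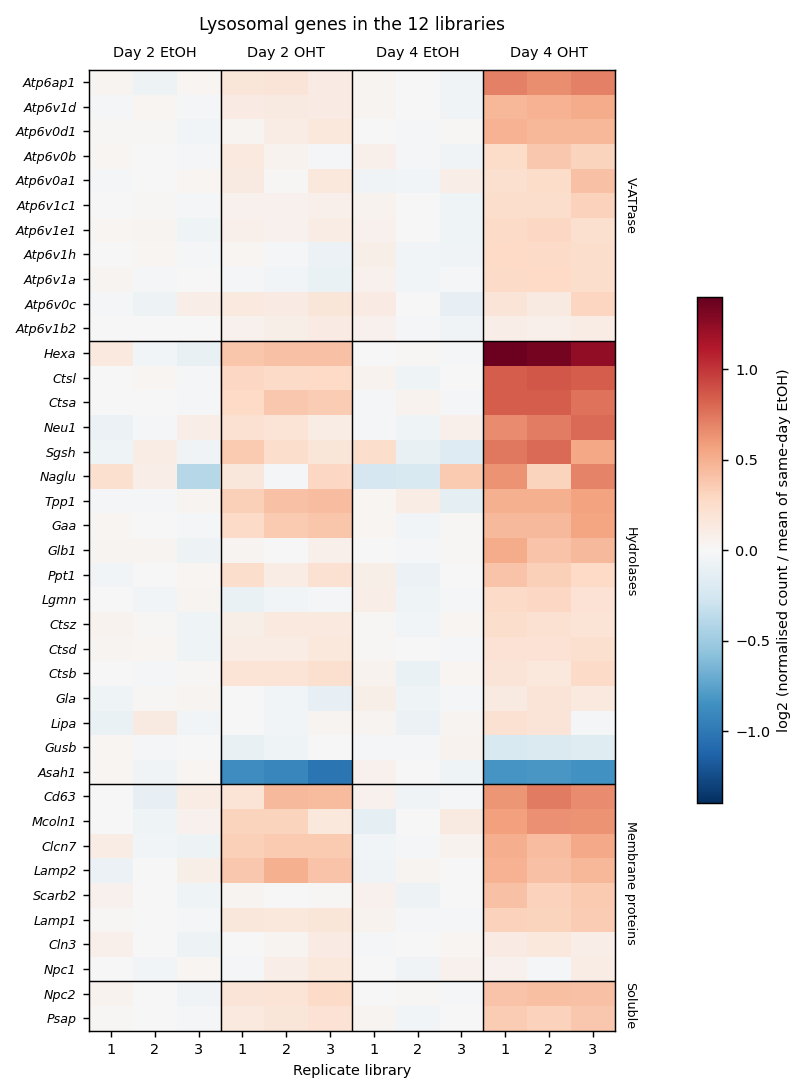
Each of the 39 genes (rows, ordered by class and by Day 4 fold change) in each of the 12 libraries (columns), as the log2 ratio of its normalised count to the mean of the EtOH libraries of the same day. Red is above and blue below that mean. Columns of Day 4 OHT are red for nearly all genes with *Hexa* the darkest, *Asah1* is blue in all 6 OHT libraries, and *Naglu*, with 49 to 105 counts, varies among the EtOH libraries as well.

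All 11 V-ATPase genes were called higher at Day 4, from both sectors and from the accessory subunit. The accessory subunit gene *Atp6ap1*, whose product takes part in assembly of the pump, changed most. Its normalised count was 990, 966 and 928 in Day 4 EtOH and 1570, 1512 and 1571 in Day 4 OHT, compared with 975 to 1045 and 1107 to 1154 at Day 2. The labels did not overlap at Day 4 and the log2 fold change was 0.69 (SE 0.06, adjusted p = 1.13e-27 by DESeq2). Of the V1 sector, *Atp6v1d* (central stalk) had a log2 fold change of 0.49 (SE 0.05), whereas *Atp6v1a* (catalytic subunit), *Atp6v1c1*, *Atp6v1e1* (peripheral stalk) and *Atp6v1h* lay together between 0.26 and 0.27. *Atp6v1b2*, the nucleotide-binding partner of the catalytic subunit, had the smallest value (0.09, SE 0.04, adjusted p = 0.0465 by DESeq2). That last call was lost in 8 alternatives, 5 of them the removal of a single library (adjusted p = 0.0849 to 0.231).

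Of the V0 sector, *Atp6v0d1* rose by 38.2% at Day 4. Its count was 2699, 2653 and 2708 in the EtOH libraries and 3757, 3701 and 3698 in the OHT libraries, a separation far beyond the spread within either label (log2 fold change 0.47, SE 0.04, adjusted p = 6.19e-28 by DESeq2). The proton-carrying ring subunit genes *Atp6v0b* and *Atp6v0c* had log2 fold changes of 0.31 (SE 0.06) and 0.21 (SE 0.06). For *Atp6v0c*, which is on the list of genes bound by PRDM10 in the study's ChIP-seq with a peak within 1 kb of its start, the counts were 3156, 2921 and 2691 in Day 4 EtOH and 3321, 3192 and 3610 in Day 4 OHT. All 3 OHT libraries were higher, the nearest by a small margin. *Atp6v0a1*, the V0 subunit that holds the proton path, had 0.30 (SE 0.07), but the effective length of its transcripts was also longer in Day 4 OHT by 0.26 on the log2 scale. Its level was accordingly 10.4 ± 0.115 TPM in Day 4 EtOH and 10.6 ± 0.934 in Day 4 OHT (SD, n = 3), and with effective lengths as offsets its log2 fold change was 0.05 and no longer called (adjusted p = 0.702 by DESeq2).

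The hydrolases held the largest rises and both falls. *Hexa*, which encodes the alpha subunit of beta-hexosaminidase, had counts of 1007, 894 and 855 in Day 2 EtOH, 1202, 1221 and 1224 in Day 2 OHT, 695, 701 and 684 in Day 4 EtOH and 1791, 1750 and 1640 in Day 4 OHT. Counts of the labels were apart on each day, and the EtOH libraries were lower and the OHT libraries higher at Day 4 than at Day 2. The log2 fold change was 0.40 (SE 0.07, adjusted p = 2.21e-06 by DESeq2) at Day 2 and 1.31 (SE 0.07, adjusted p = 1.99e-87 by DESeq2) at Day 4, the latter a 2.49-fold difference. *Ctsl*, a cysteine protease gene of high abundance, moved in the same way from 5106 to 5276 counts against 6253 to 6312 at Day 2 to 3866, 3570 and 3760 against 6695, 6817 and 6692 at Day 4. Its log2 fold changes were 0.28 (SE 0.04) and 0.85 (SE 0.04, adjusted p = 2.10e-103 by DESeq2).

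Members of a protein complex were also among the genes that rose. The carboxypeptidase encoded by *Ctsa* protects the sialidase (*Neu1*) and the beta-galactosidase (*Glb1*) from degradation. *Ctsa* counts were 1247, 1308 and 1246 in Day 4 EtOH and 2288, 2283 and 2149 in Day 4 OHT, a log2 fold change of 0.82 (SE 0.06, adjusted p = 5.74e-48 by DESeq2) after 0.34 (SE 0.06) at Day 2. *Neu1* counts were 431, 420 and 460 against 693, 717 and 759 at Day 4, where the labels lay well apart (0.72, SE 0.09, adjusted p = 3.77e-15 by DESeq2), and 616 to 691 against 700 to 754 at Day 2, where they nearly touched (0.18, SE 0.08, adjusted p = 0.152 by DESeq2). *Glb1* was not called at Day 2 (0.03, SE 0.06) and had 0.46 (SE 0.05) at Day 4. All 3 genes were called for the difference between the days.

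Among the other hydrolases, *Tpp1* (0.51), *Gaa*, which degrades glycogen (0.48), *Ppt1* (0.34) and the asparagine-specific protease gene *Lgmn* (0.25) were called higher at Day 4 on the log2 scale. The cathepsin genes *Ctsb*, *Ctsd* and *Ctsz* differed less, with 0.20, 0.21 and 0.21. With effective lengths as offsets *Ctsb* was no longer called (0.14, adjusted p = 0.110 by DESeq2). *Sgsh* counts were 91, 71 and 68 in Day 4 EtOH and 127, 132 and 112 in Day 4 OHT, a low level at which the groups were nonetheless apart (log2 fold change 0.69, SE 0.21, adjusted p = 0.00361 by DESeq2). This call was lost when any 1 of the 3 Day 4 OHT libraries was left out, since the mean then fell under the minimum count (adjusted p = 0.0105 to 0.0450), and with effective lengths as offsets (0.47, adjusted p = 0.233). *Naglu* had 49, 49 and 74 counts in Day 4 EtOH and 89, 71 and 93 in Day 4 OHT, which overlapped.

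*Asah1* and *Gusb* went the other way. *Asah1* encodes acid ceramidase, which splits ceramide into sphingosine and a fatty acid, lies on chromosome 8 (41340197 to 41374773, minus strand, GRCm38) and is on the list of PRDM10-bound genes with a peak within 1 kb of its start. Its count was 4436, 4227 and 4437 in Day 2 EtOH and 2395, 2315 and 2147 in Day 2 OHT, then 4610, 4399 and 4218 in Day 4 EtOH and 2494, 2505 and 2449 in Day 4 OHT. All 6 OHT libraries lay far below all 6 EtOH libraries. The log2 fold change was -0.93 (SE 0.05, adjusted p = 7.85e-66 by DESeq2) at Day 2, where expression fell by 47.6%, and -0.83 (SE 0.04, adjusted p = 8.42e-75 by DESeq2) at Day 4, where it fell by 43.8%. The difference between the days was not called (0.10, SE 0.07, adjusted p = 0.269 by DESeq2). *Gusb*, the beta-glucuronidase gene, had 883, 873 and 922 counts in Day 4 EtOH and 772, 774 and 791 in Day 4 OHT, a log2 fold change of -0.20 (SE 0.07, adjusted p = 0.0193 by DESeq2). It was no longer called without Day 4 EtOH replicate 3 (adjusted p = 0.109), without Day 4 OHT replicate 1, 2 or 3 (0.0915, 0.0849 and 0.0575) or with the replicate number as a block (0.111).

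**Figure D3:**
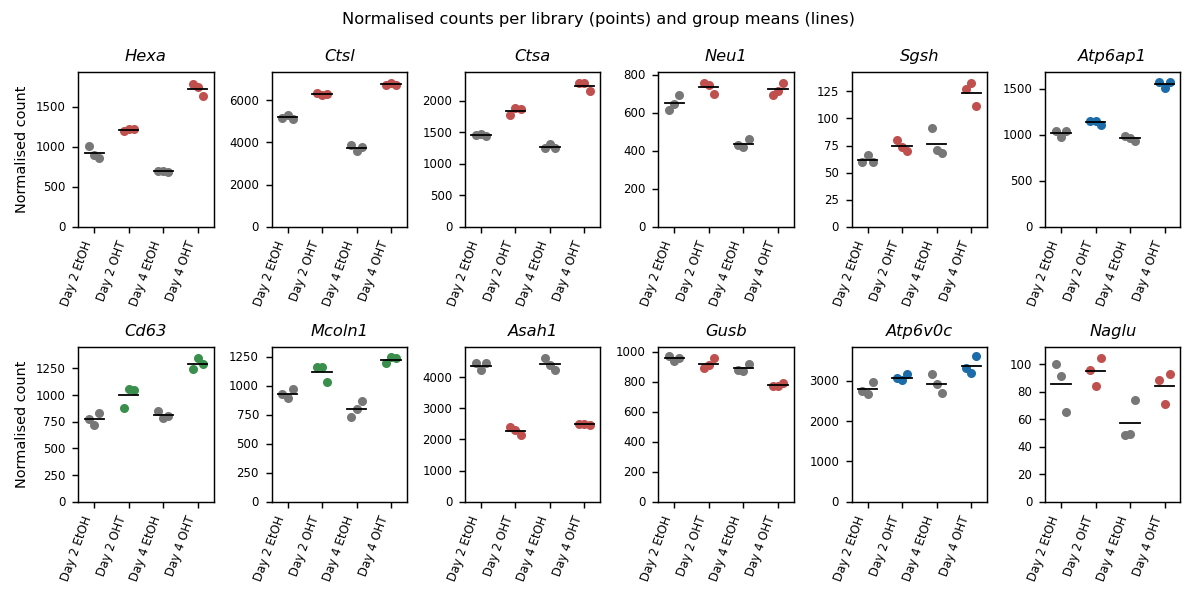
Normalised counts (vertical axes starting at 0) of the 12 genes singled out by the naming rule, with a point per library and a line at each group mean, EtOH in grey and OHT in the colour of the class. *Hexa*, *Ctsl*, *Ctsa* and *Neu1* are highest in Day 4 OHT or alike in both OHT groups and lowest in Day 4 EtOH, whereas *Asah1* is at 2147 to 2505 counts in all OHT libraries and at 4218 to 4610 in all EtOH libraries.

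Of the 8 membrane protein genes, 6 were higher at Day 4, and 5 of these had been so at Day 2. *Cd63*, a tetraspanin gene, had 776, 716 and 836 counts in Day 2 EtOH and 883, 1059 and 1052 in Day 2 OHT. At Day 4 it had 848, 786 and 806 against 1246, 1351 and 1288, with no overlap on either day (log2 fold change 0.67, SE 0.07, adjusted p = 1.82e-21 by DESeq2). *Mcoln1* had 731, 801 and 871 counts in Day 4 EtOH and 1194, 1246 and 1239 in Day 4 OHT, again well apart (0.61, SE 0.07, adjusted p = 1.21e-15 by DESeq2). Its Day 2 counts were 896 to 969 and 1033 to 1158 (0.26, SE 0.07, adjusted p = 0.00539 by DESeq2). That call was lost without Day 2 EtOH replicate 1 or 2 and without Day 2 OHT replicate 1 or 2 (adjusted p = 0.0507 to 0.0728 by DESeq2). It was also lost with the replicate number as a block (0.0696) and with effective lengths as offsets (0.0666). *Mcoln1* is also on the list of bound genes, but its peak lies near its end and not its start.

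The chloride-proton exchanger gene *Clcn7* and the glycoprotein gene *Lamp2* changed by much the same amount on both days, with log2 fold changes of 0.36 and 0.49 for *Clcn7* and 0.43 and 0.45 for *Lamp2*. *Lamp1* rose by 11.6% at Day 2 and by 25.4% at Day 4, from 9945 to 10453 counts in Day 4 EtOH to 12554 to 12920 in Day 4 OHT. *Scarb2*, a sorting receptor gene, was at 0.01 (SE 0.05) at Day 2 and 0.36 (SE 0.05) at Day 4. *Cln3* and the cholesterol exporter gene *Npc1* had Day 4 log2 fold changes of 0.12 (SE 0.09) and 0.05 (SE 0.05) and were not called. *Npc2*, which hands cholesterol to NPC1 inside the lysosome, was called higher on both days (0.21, SE 0.05, and 0.41, SE 0.04). So was *Psap* (0.17, SE 0.04, and 0.35, SE 0.04), the precursor of the saposins that present sphingolipids to hydrolases.

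**Figure D4:**
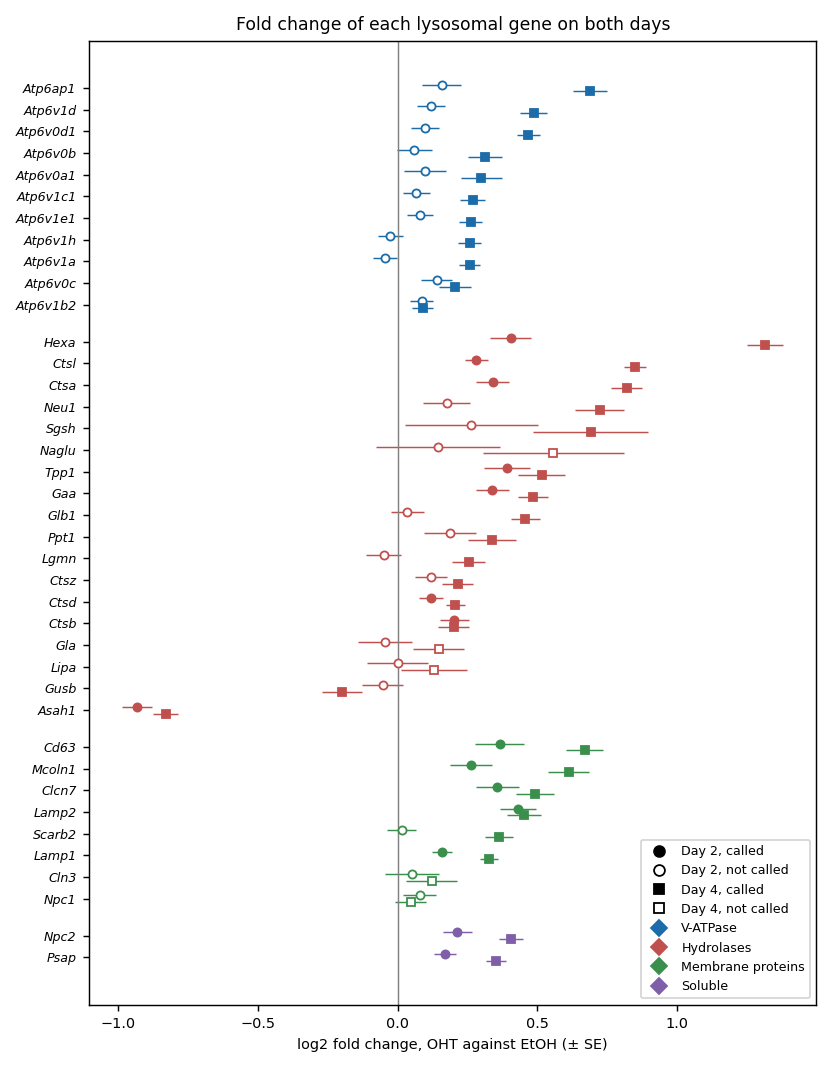
Log2 fold change of the OHT against the EtOH libraries (horizontal axis, error bars SE) for each gene at Day 2 (circles) and Day 4 (squares), coloured by class, with filled symbols for genes called by DESeq2. All V-ATPase genes have open circles and filled squares, *Hexa* reaches 1.31 at Day 4, and *Asah1* is at -0.93 and -0.83.

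To compare the proton pump with the other classes, the median log2 fold change of each class was set side by side. At Day 2 it was 0.09 for the V-ATPase, 0.15 for the hydrolases and 0.21 for the membrane proteins above the minimum. At Day 4 it was 0.27, 0.34 and 0.41. The V-ATPase thus had the lowest median on both days, but the gap to the hydrolases was small, -0.061 at Day 2 and -0.070 at Day 4 on the log2 scale. These medians hold for the chosen genes only. Among the further genes listed below, Day 4 medians were 0.08 for V-ATPase genes, 0.33 for enzymes and 0.21 for membrane proteins, a wider gap to the enzymes. For the chosen genes, the Day 4 gap to the hydrolases was 0.0044 without Day 4 OHT replicate 1 and -0.0088 without Day 4 OHT replicate 2. It was -0.027 without Day 4 EtOH replicate 2 and -0.028 with all 12 libraries in 1 fit. Without a Day 4 OHT library and in the fit of all 12, *Sgsh* fell under the minimum and left the hydrolase median. The order of these classes at Day 4 was thus not stable, and the parts of single libraries and of gene membership were not told apart. The gap to the membrane proteins was -0.124 at Day 2 and -0.140 at Day 4, and leaving out single libraries moved it between -0.160 and -0.102 and between -0.165 and -0.107. Day 4 values ran from 0.09 to 0.69 among the V-ATPase genes, from -0.83 to 1.31 among the hydrolases and from 0.05 to 0.67 among the membrane proteins.

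Whether the 2 days differed was tested directly, with an interaction term for treatment and day in a fit of the 12 libraries. The effect was more positive at Day 4 for 20 of the 39 genes, against 18.7% of the 11616 genes tested. It was more negative for 0 genes, against 13.6%, by DESeq2 and by edgeR, and at an unadjusted p below 0.05 for 0 genes by DESeq2 and 1 by edgeR. Of the 11 V-ATPase genes, 8 were called, with values from 0.18 for *Atp6v1e1* to 0.53 for *Atp6ap1*. The exceptions were *Atp6v0a1* (0.20, SE 0.10), *Atp6v0c* (0.07, SE 0.09) and *Atp6v1b2* (0.01, SE 0.05). Of the hydrolases, 6 were called (*Hexa* 0.91, *Ctsl* 0.57, *Neu1* 0.55, *Ctsa* 0.48, *Glb1* 0.43 and *Lgmn* 0.31). *Ctsb* had 0.0013 (SE 0.07) and *Ctsd* 0.09 (SE 0.05), and neither was called, although *Ctsd* was without Day 2 EtOH replicate 3 (0.12, adjusted p = 0.0336 by DESeq2). Of the membrane proteins, *Scarb2*, *Mcoln1*, *Cd63* and *Lamp1* were called and *Lamp2* was not (0.02, SE 0.08). Of the 18 genes called higher at Day 4 and not at Day 2, 12 had a called difference between the days, and for the other 6 a rise at Day 4 alone was not shown.

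The same genes were then compared between the days within each label, since the EtOH libraries also differed with time. In the EtOH libraries, 16 of the 39 genes were lower at Day 4 than at Day 2, against 20.5% of 11572 genes tested, and 0 were higher, against 20.6%. The count of 0 held for DESeq2 at an unadjusted p below 0.05 too, while edgeR called 1. All 5 cathepsin genes were among the 16, with *Ctsl* lowest (-0.47, SE 0.04), as were *Neu1* (-0.57, SE 0.09), *Hexa* (-0.41, SE 0.08) and *Lamp2* (-0.41, SE 0.07). In the OHT libraries, 17 genes were higher at Day 4, against 30.7% of 11638 genes tested, and 6 were lower, against 22.9%. The 17 included 7 V-ATPase genes, with *Atp6ap1* at 0.45 (SE 0.06), and also *Hexa* (0.51, SE 0.06) and *Glb1* (0.39, SE 0.05). Of the 7, *Atp6v0c*, *Atp6v1h* and *Atp6v1e1* were no longer called once the trend on gene length was removed, which left 4, and with the replicate number as a block *Atp6v0c* and *Atp6v1h* were not called. The 6 were *Ctsb*, *Ctsd*, *Ctsz*, *Gusb*, *Lamp2* and *Npc1*, whose values ran from -0.38 to -0.15. The comparison of days within EtOH shares its Day 4 libraries with that of the labels at Day 4, and the one is not independent of the other. For *Neu1* the OHT libraries did not detectably differ between the days (-0.02, SE 0.08), so that its Day 4 difference went with a lower EtOH level. For *Glb1* and *Atp6ap1* it was the EtOH level that did not detectably differ (-0.04, SE 0.06, and -0.09, SE 0.07).

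**Figure D5:**
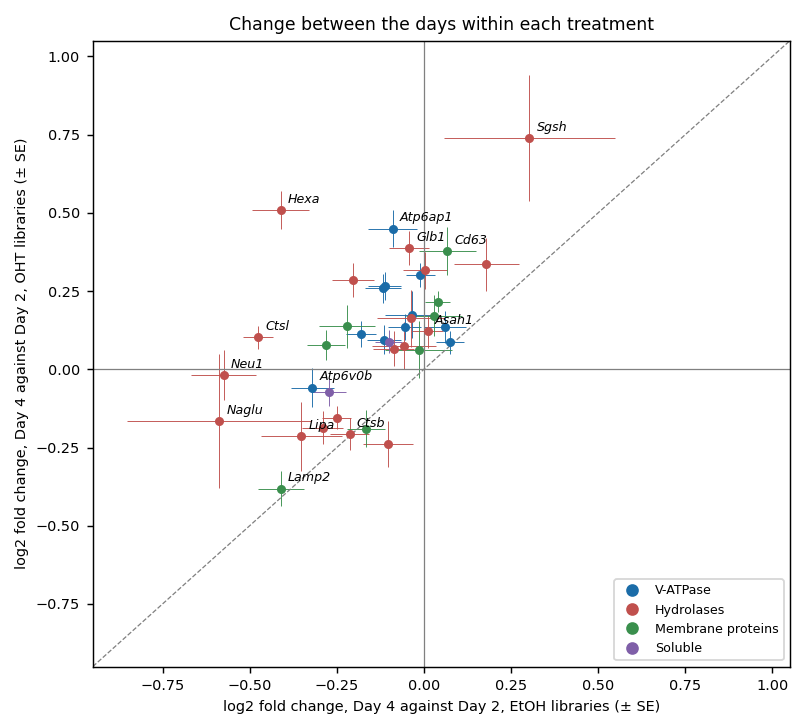
Log2 fold change of Day 4 against Day 2 in the EtOH libraries (horizontal axis) and in the OHT libraries (vertical axis), with SE as error bars, a point per gene coloured by class, and the dashed line of equal change. Points left of 0 were lower at Day 4 in EtOH, and nearly all points lie above the line. *Hexa* is at -0.41 and 0.51, *Neu1* at -0.57 and -0.02 and *Lamp2*, near the line, at -0.41 and -0.38.

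Genes with and without CACGTG in the promoter window were listed side by side. At Day 4, where 23.5% of all genes tested were called higher, 13 of the 16 with it were, with a median log2 fold change of 0.46 over the 15 above the minimum. Of the 17 without it, 15 were called higher and *Gusb* lower, with a median of 0.36. At Day 2 the order of the medians was the opposite, 0.11 with it and 0.16 without it. *Lamp1*, with 4 copies, had a smaller Day 4 log2 fold change (0.33) than *Hexa*, which had no copy in its window and the largest (1.31).

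Other genes of the pathway were taken from lists of further V-ATPase genes, enzymes, membrane proteins, delivery factors and regulators. The counts are to be read against the Day 4 shares of all genes tested, 23.5% called higher and 21.7% lower. Of 21 other V-ATPase genes, 14 were above the minimum at Day 4, and 3 of them were called higher by DESeq2, a share near that of all genes, with a median of 0.08 over the 14. The 3 were the accessory subunit gene *Atp6ap2* (0.63, SE 0.05), *Atp6v1g1* (0.46, SE 0.05) and *Tcirg1* (0.32, SE 0.11). Of 34 other lysosomal enzymes, 29 were above the minimum and 15 were higher and 3 lower, with a median of 0.33. Among those that rose were the nuclease gene *Dnase2a* (1.01, SE 0.08) and the glycosidase gene *Idua* (0.82, SE 0.19). The 3 that fell were the hyaluronidase gene *Hyal2* (-2.63, SE 0.09), *Ids* (-0.35, SE 0.13) and *Manba* (-0.11, SE 0.03). Of 30 other membrane proteins, 27 were above the minimum, 13 were higher and 1 lower, with a median of 0.21. *Cd68* (0.78, SE 0.15), the potassium channel gene *Tmem175* (0.64, SE 0.15) and the cystine transporter gene *Ctns* (0.54, SE 0.10) led the rise, and *Slc29a3* was lower (-0.82, SE 0.13).

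Of 16 genes that deliver or activate lysosomal enzymes, 5 were higher and 5 lower at Day 4, not far from the shares of all genes (23.5% and 21.7%). Higher were, among others, *Gnptg* (0.93, SE 0.10), *Sumf1* (0.45, SE 0.08) and *Cln6* (0.34, SE 0.13). *Gnptg* encodes a subunit of the enzyme that makes the mannose 6-phosphate tag. The catalytic part of the same enzyme, *Gnptab*, was lower (-0.29, SE 0.06). *Cln8*, a receptor that carries lysosomal enzymes out of the endoplasmic reticulum, had 1558, 1571 and 1448 counts in Day 2 EtOH and 502, 523 and 524 in Day 2 OHT, then 1624, 1514 and 1620 against 236, 228 and 246 at Day 4. It was lower in every OHT library on both days (log2 fold change -1.56, SE 0.07, and -2.74, SE 0.08). *Ap1s1* was lower at Day 4 (-0.24, SE 0.07).

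Among 18 regulators, 17 above the minimum, 7 were higher and 7 lower at Day 4, where 23.5% and 21.7% of all genes were. *Flcn* fell most. Its count was 1762, 1759 and 1638 in Day 2 EtOH and 349, 395 and 335 in Day 2 OHT, and at Day 4 it was 1739, 1765 and 1820 against 205, 198 and 214. No OHT library came near an EtOH library on either day (log2 fold change -2.25, SE 0.08, and -3.11, SE 0.08). Its partner genes *Fnip1* (0.61, SE 0.04) and *Fnip2* (0.14, SE 0.05) were higher at Day 4, as were the Rag GTPase gene *Rragd* (0.64, SE 0.06) and *Mtor* (0.27, SE 0.04). The genes of the transcription factors that recognise the CACGTG element were lower at Day 4, with -0.57 (SE 0.05) for *Mitf*, -0.37 (SE 0.10) for *Tfeb* and -0.18 (SE 0.07) for *Tfe3*. Where in the cell these factors lay was not measured. *Flcn*, *Hyal2*, *Cln8* and *Cd164* were the genes of these further lists that are on the published list of PRDM10-bound genes, and *Cd164* was not called on either day (0.01 and 0.05).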

How the data were processed

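RNA-seq libraries of 4 groups were assigned by sample title, with 3 per group. The deposited expected counts were made by the authors with STAR (version 2.6.0c) and RSEM on GRCm38.p6 with GENCODE vM18 annotation, from stranded total RNA libraries. An expected count shares a read pair among the genes it maps to, and its posterior SD was at most 0.23% of the count for any of the 39 genes. The deposited TPM values were also given by RSEM, add up to a fixed total per library and served for levels only. The deposited tables of the authors' comparisons were used for gene symbols alone. Coordinates are from GENCODE vM21. Errors of TPM levels and sums are SDs between libraries, since PCR reads without molecular identifiers are not independent molecules. SE is the standard error of a log2 fold change from DESeq2.

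Counts were rounded and tested over all genes with DESeq2 (version 1.42.0, R 4.3.3, Wald test, median-of-ratios factors, unshrunken fold changes). A gene was called at an adjusted p (Benjamini-Hochberg) below 0.05 where its mean normalised count exceeded 100. Per-library counts share size factors over all 12 libraries. The difference between the days was the interaction term over these. The code was tested on simulated counts. Replicates were no duplicates, as their chi-square per gene was 3.45 to 11.1. Alternatives were edgeR (version 4.0.16), TMM and total-count scaling, effective lengths as offsets, removal of the trend on gene length, the replicate block, all libraries in 1 fit, no minimum and each library left out.

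The genes, the further lists, the rule for names and the tests were chosen with earlier results of these data known. Values are given per library for up to 8 most positive and 6 most negative called genes at Day 4 and for PRDM10-bound genes, and in the further lists up to 3 genes per direction are named, apart from a gene that is not reported here. *Lamp1*, *Atp6v0d1* and *Cln8* were given in more detail after their values were seen. PRDM10-bound genes are the study's published list of 633, of which 627 were in the files.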

Additional observations from a re-analysis of the deposited data

Results flagged for a closer look

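The effect of OHT differed between the days in 20 of the 39 genes, by the interaction test of DESeq2 in the fit of the 12 libraries. All 20 values were positive, that is, the log2 fold change was more positive at Day 4 by the amount given here. Among the hydrolases they were 0.91 for *Hexa*, 0.57 for *Ctsl*, 0.55 for *Neu1*, 0.48 for *Ctsa*, 0.43 for *Glb1* and 0.31 for *Lgmn*. Among the V-ATPase genes they were 0.53 for *Atp6ap1*, 0.37 for both *Atp6v0d1* and *Atp6v1d*, 0.31 for *Atp6v1a*, 0.29 for *Atp6v1h*, 0.26 for *Atp6v0b*, 0.20 for *Atp6v1c1* and 0.18 for *Atp6v1e1*. Among the membrane proteins they were 0.35 for both *Scarb2* and *Mcoln1*, 0.31 for *Cd63* and 0.17 for *Lamp1*, and for the soluble proteins 0.20 (*Npc2*) and 0.18 (*Psap*). The least certain was *Cd63* (SE 0.11, adjusted p = 0.0260 by DESeq2), whose call was lost in 9 alternatives. No gene of the set moved the other way by this test at the adjusted threshold, although *Gusb* had -0.14 (SE 0.08, adjusted p = 0.244 by DESeq2).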

How the results depend on the processing

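At Day 4, 32 genes were called higher, 29 to 32 under the other settings and 30 to 32 with a library left out, and 2 were called lower, 1 to 2 with a library left out. The count lower was 1 with the replicate block and 1 with that block and the length trend removed, where *Gusb* was lost. At Day 2, 14 genes were higher and 1 lower (12 to 14 and 1 with a library left out). The count higher was 20 with edgeR, 19 with total counts and 20 with the length trend removed. The interaction called 20 genes more positive (19 to 20), 18 with the length trend removed and 16 with that and the block, and 0 more negative, 0 with any library left out. Between the days, 16 genes were lower (12 to 16) and 0 higher (0) in the EtOH libraries, with 1 higher under edgeR and 1 under total counts, and 17 were higher (14 to 17) and 6 lower (5 to 6) in the OHT libraries. The 17 became 12 with the replicate block, alone or with the length trend removed, 13 with total counts or the length trend removed and 23 with edgeR. Of the genes called, 13 of 15 at Day 2, 29 of 34 at Day 4, 15 of 20 for the interaction, 12 of 16 between the days in EtOH and 16 of 23 in OHT kept their call under every alternative run. No called gene reversed. The median of the V-ATPase minus that of the hydrolases was -0.0709 to -0.0528 at Day 2 and -0.0903 to 0.0044 at Day 4 with a library left out, and minus that of the membrane proteins -0.1603 to -0.102 and -0.165 to -0.1069. No scaling moved the median of all genes by more than 0.045.

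Deviations from the group means of samples with the same replicate number had correlations from -0.43 to 0.29. Samples of different numbers were not compared in this way, so that whether the numbers pair the samples was not settled. With the block, 12 genes were higher and 1 lower at Day 2 and 31 and 1 at Day 4. *Naglu* and *Sgsh* were near the minimum count, and whether depth limited the calls of other genes was not tested.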
